A study of Homo sapiens with 8 samples.

Results

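The endoplasmic reticulum (ER) chaperones and unfolded protein response genes HSPA5, HSP90B1, PDIA4, DNAJB9, SDF2L1, HERPUD1, XBP1, CALR, EDEM1 and HYOU1 were examined in 2 human ovarian cancer cell lines, OVSAHO and KURAMOCHI, both regarded as models of high-grade serous carcinoma. Each gene was represented by the probe whose annotated transcript carried its symbol, and where several probes did so, by the brightest on average, giving 10 of the 16942 genes tested. The 8 one-color arrays formed 4 groups of 2: OVSAHO with simvastatin, OVSAHO with L-778123, KURAMOCHI with simvastatin and KURAMOCHI with L-778123. Simvastatin inhibits HMG-CoA reductase at the head of the mevalonate pathway, whereas L-778123 blocks the farnesyl and geranylgeranyl transferases, which attach the products of that pathway to proteins. The study set the drugs against each other to find expression that depends on more than the loss of protein prenylation. No untreated arrays were analysed here, so every drug value below is simvastatin relative to L-778123, and a difference can lie with either drug. Doses and times for these arrays were not given in the sources used here, and nothing states that the 2 arrays of a group came from separate cultures, so p-values measure the spread between arrays, which may be technical.

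Proteins that enter the secretory pathway fold in the ER with the help of chaperones, and when unfolded proteins build up there, IRE1, PERK and ATF6 signal from the ER membrane. IRE1 splices the XBP1 transcript to yield an active transcription factor, cleaved ATF6 moves to the nucleus, and PERK slows translation while favouring ATF4. ATF6 and XBP1 raise chaperones and the degradation machinery, in part through ER stress response elements. ATF4 raises genes of amino acid supply and, through DDIT3 (CHOP), of cell death.

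All 10 genes were well above background on each of the 8 arrays, and none was saturated. Values are log2 intensities after the 75th percentile of each array was set to 0, so they compare arrays for 1 gene and not genes with each other. Duplicate arrays correlated with Pearson r of 0.9949 to 0.9958 over the tested probes, and between 51.8% and 57.5% of probes were well above background. All 12 epithelial ovarian markers, PAX8, WT1 and EPCAM among them, were well above background on every array, whereas no fibroblast marker of 6 was so on all 4 OVSAHO arrays and 2 were on all 4 KURAMOCHI arrays. That flag does not give a level. Averaged over both drugs, 6 epithelial markers were higher and 5 lower in OVSAHO than in KURAMOCHI (42.4% and 40.5% of all genes). Their log2 differences ran from -3.99 to 5.78. Of 5 leukocyte markers 4 were well above background throughout and none of the 4 tested passed the test between drugs. Of 5 endothelial markers, 2 were well above background on all OVSAHO arrays and 3 on all KURAMOCHI arrays, and in OVSAHO VWF fell (-3.30) and TEK rose, the latter not well above background on the L-778123 arrays. The epithelial markers also moved with the drug, 7 rising and 3 falling in OVSAHO and 2 rising and 7 falling in KURAMOCHI, and the part of either list in the results was not tested. In such bulk RNA, fewer cells with a transcript and less transcript per cell cannot be told apart. HMGCS1, an early enzyme of sterol synthesis, was higher with simvastatin by 0.40 in OVSAHO and 1.57 in KURAMOCHI on the log2 scale, with adjusted p of 0.00308 and 0.000147 (limma, Benjamini-Hochberg).

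The promoters are described first, because the ER stress response element belongs to the textbook account of many such genes. They were searched after the expression contrasts had been computed. In the RefSeq promoters of build GRCh38.p14, 250 bases before to 50 after each start, both strands were searched for ERSE (CCAAT, 9 bases of any kind, CCACG), ERSE-II (ATTGG, 1 base of any kind, CCACG), UPRE (TGACGTGG) and the AARE core bound by ATF4 and its partners (TGATGNAA). ERSE or ERSE-II was present at 7 of the 10 genes and at 46 of all 35116 promoter entries, or 0.131%. PDIA4 and XBP1 had 2 entries each, and a match in either counted for the gene. The textbook account already ties the element to such genes, so the count is a description and not a test. The other 3 genes, PDIA4, DNAJB9 and EDEM1, held neither string in this window. The 250 bases before the start are shown for the 7, 5′ to 3′ in the direction of the gene, with ERSE and ERSE-II in capitals, and a match on the opposite strand reads CGTGG first. They lie at HSPA5 chr9:125241344-125241593 on the minus strand, HSP90B1 chr12:103930160-103930409 on the plus strand, CALR chr19:12938359-12938608 on the plus strand, XBP1 chr22:28800570-28800819 on the minus strand, SDF2L1 chr22:21642052-21642301 on the plus strand, HERPUD1 chr16:56931892-56932141 on the plus strand and HYOU1 chr11:119057206-119057455 on the minus strand.
HSPA5: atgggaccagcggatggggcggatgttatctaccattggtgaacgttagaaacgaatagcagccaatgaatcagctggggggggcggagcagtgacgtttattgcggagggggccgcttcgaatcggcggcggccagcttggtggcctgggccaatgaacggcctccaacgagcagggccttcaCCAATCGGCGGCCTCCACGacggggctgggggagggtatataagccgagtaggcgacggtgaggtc
HSP90B1: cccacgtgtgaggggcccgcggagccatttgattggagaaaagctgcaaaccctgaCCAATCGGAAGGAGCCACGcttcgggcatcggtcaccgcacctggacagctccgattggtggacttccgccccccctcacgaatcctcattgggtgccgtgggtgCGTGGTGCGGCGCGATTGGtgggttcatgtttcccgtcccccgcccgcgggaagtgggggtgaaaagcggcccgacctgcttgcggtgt
CALR: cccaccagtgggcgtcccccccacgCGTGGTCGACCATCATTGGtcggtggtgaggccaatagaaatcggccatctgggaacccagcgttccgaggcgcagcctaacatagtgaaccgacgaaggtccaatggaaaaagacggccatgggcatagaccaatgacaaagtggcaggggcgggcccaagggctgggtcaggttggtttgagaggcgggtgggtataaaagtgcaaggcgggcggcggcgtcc
XBP1: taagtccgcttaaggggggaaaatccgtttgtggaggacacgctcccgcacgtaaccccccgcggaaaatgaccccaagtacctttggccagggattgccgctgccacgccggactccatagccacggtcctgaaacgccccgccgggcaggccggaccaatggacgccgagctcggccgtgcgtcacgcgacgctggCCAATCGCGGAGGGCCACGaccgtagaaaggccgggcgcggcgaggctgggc
SDF2L1: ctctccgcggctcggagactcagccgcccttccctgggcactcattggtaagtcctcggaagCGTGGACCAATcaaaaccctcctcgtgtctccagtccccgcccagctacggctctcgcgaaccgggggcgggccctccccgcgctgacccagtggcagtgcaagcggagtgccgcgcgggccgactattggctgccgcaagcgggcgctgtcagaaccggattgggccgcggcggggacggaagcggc
HERPUD1: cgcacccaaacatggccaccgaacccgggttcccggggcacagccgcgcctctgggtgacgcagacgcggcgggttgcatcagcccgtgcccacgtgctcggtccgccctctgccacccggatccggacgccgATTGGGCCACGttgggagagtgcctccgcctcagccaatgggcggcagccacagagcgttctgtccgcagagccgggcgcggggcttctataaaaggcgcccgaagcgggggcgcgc
HYOU1: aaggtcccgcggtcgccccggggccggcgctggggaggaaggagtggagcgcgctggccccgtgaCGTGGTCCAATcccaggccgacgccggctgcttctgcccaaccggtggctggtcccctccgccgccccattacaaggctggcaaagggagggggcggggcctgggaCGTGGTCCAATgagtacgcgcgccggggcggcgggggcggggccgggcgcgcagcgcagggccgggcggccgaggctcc

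ERSE began 66 bases before the start of HSPA5 and 52 bases before that of XBP1, on the strand of the gene in both. HSP90B1 carried it at 194 and 89 bases before the start, the second on the opposite strand, and CALR at 225 bases on the opposite strand. ERSE-II began 188 bases before the start of SDF2L1 and 117 before that of HERPUD1. HYOU1 held ERSE-II at 185 and 79 bases, and its single UPRE match, at 188 bases, overlapped the first of these. HERPUD1 also held the AARE core, at 176 bases before the start, a string found in 3.62% of promoters, whereas ERSE alone was found in 0.0769%, ERSE-II in 0.0541% and UPRE in 0.729%.

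**Figure D1:**
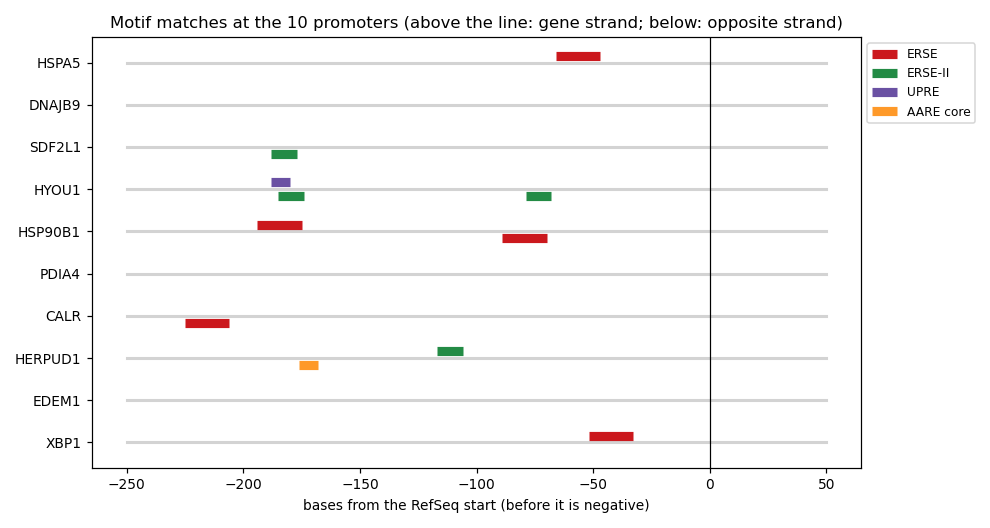
Positions of the motif matches in the RefSeq promoters of the 10 genes; the horizontal axis gives bases from the start, grey lines mark the searched window, and coloured bars mark matches on the strand of the gene (above the line) or the opposite strand (below). Matches to ERSE or ERSE-II stand at 7 of 10 genes, and none stands at DNAJB9, PDIA4 or EDEM1.

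In OVSAHO, 3 genes (HERPUD1, DNAJB9 and XBP1) rose and 4 (SDF2L1, PDIA4, HSP90B1 and HYOU1) fell at an adjusted p under 0.05, where "rose" and "fell" describe simvastatin relative to L-778123, and CALR joined those that fell with quantile normalization, normexp or the authors' table. Over all genes tested, 26.4% rose and 27.5% fell in this line, so the counts of the 10 are near the background. In KURAMOCHI, 4 genes (HERPUD1, DNAJB9, XBP1 and HSPA5) rose and 0 fell with limma, and with Tukey's test 3 rose, XBP1 being lost, and 0 fell. Of the remaining 6, all but EDEM1 had negative estimates, and 2, HSP90B1 and SDF2L1, had an unadjusted p under 0.05 (0.038 and 0.0167). Over all genes tested, 17.0% rose and 18.4% fell in KURAMOCHI. None of the 10 reached 2-fold in either line, whereas 5.69% of all genes rose and 5.87% fell by at least that much in OVSAHO, and 2.43% and 2.94% did so in KURAMOCHI. The median log2 fold change of the 10 was -0.18 in OVSAHO and -0.001 in KURAMOCHI, beside medians of 0.014 and 0.011 over all genes. HERPUD1, DNAJB9 and XBP1 rose in both lines, and no gene fell in both at the probe used.

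**Figure D2:**
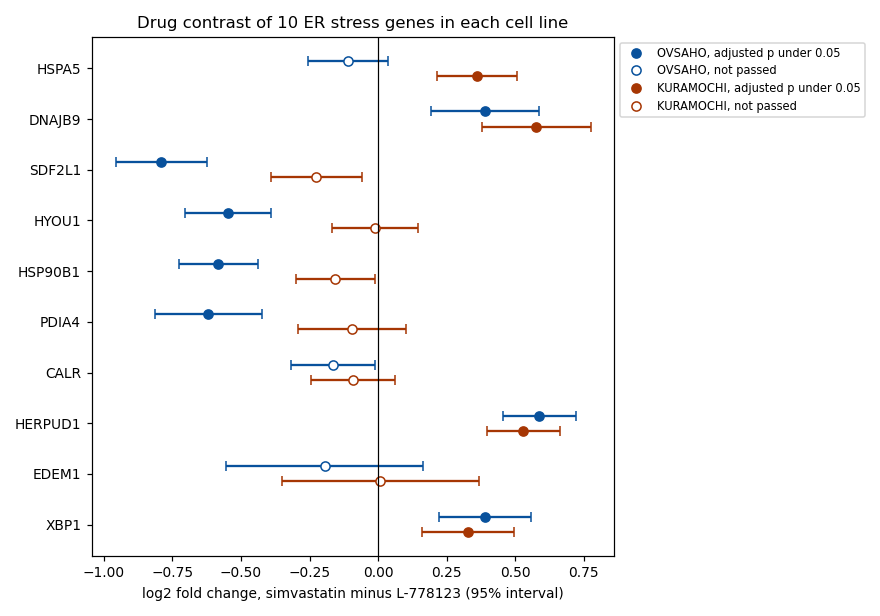
Log2 fold change of each gene, simvastatin minus L-778123, in OVSAHO (blue) and KURAMOCHI (brown), with 95% intervals from limma; filled points passed an adjusted p of 0.05 and open points did not. HERPUD1, DNAJB9 and XBP1 lie to the right of 0 in both lines, whereas SDF2L1, HYOU1, HSP90B1 and PDIA4 passed to the left of 0 for OVSAHO and not for KURAMOCHI.

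HSPA5 (BiP), the ER member of the HSP70 family that holds unfolded chains and keeps the 3 sensors inactive, gave estimates of opposite sign in the lines. In OVSAHO it measured 2.64 and 2.66 with simvastatin and 2.74 and 2.77 with L-778123. In KURAMOCHI it measured 3.71 and 3.77 with simvastatin and 3.42 and 3.34 with L-778123. The KURAMOCHI groups stood apart with simvastatin on top, and the OVSAHO groups stood apart by little, with simvastatin below. The log2 fold change was 0.36 (SE 0.059, adjusted p = 0.00777), a rise of 28.5%, in KURAMOCHI, and -0.11 (SE 0.059, adjusted p = 0.176; 95% interval -0.26 to 0.04) in OVSAHO.

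DNAJB9 (ERdj4), a J-domain partner that delivers clients to BiP and aids their degradation, rose in both lines. It measured 3.49 and 3.53 with simvastatin against 3.21 and 3.02 with L-778123 in OVSAHO. The KURAMOCHI values were 4.19 and 4.23 against 3.59 and 3.68. No simvastatin array of a line overlapped the L-778123 arrays of that line. The log2 fold changes were 0.39 (SE 0.080, adjusted p = 0.00989) in OVSAHO and 0.58 (SE 0.080, adjusted p = 0.00445) in KURAMOCHI, and the OVSAHO call ended without the second OVSAHO simvastatin array (0.37, adjusted p = 0.0506) and under Tukey's test after a two-way variance analysis (adjusted p = 0.0681).

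SDF2L1, which works with BiP and its J-domain partners to keep clients from aggregating, gave the largest change of the 10 in OVSAHO. Its values there were 4.99 and 5.05 with simvastatin against 5.74 and 5.88 with L-778123. In KURAMOCHI the values were 5.80 and 5.84 against 6.05 and 6.04, so simvastatin arrays were the lower in both lines. Expression fell by 0.79 on the log2 scale (SE 0.067, adjusted p = 0.000426), or by 42.2%, in OVSAHO. The KURAMOCHI estimate of -0.23 (SE 0.067) had an adjusted p of 0.0522, and the call was made when only probes bright on all arrays were tested (adjusted p = 0.033), with normexp background correction (-0.24, adjusted p = 0.0206), and without either OVSAHO L-778123 array (adjusted p = 0.0428 each).

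HYOU1 (GRP170), the large HSP70 relative that exchanges nucleotide on BiP, fell in OVSAHO. Its values were -0.53 and -0.64 with simvastatin against -0.01 and -0.07 with L-778123, with no overlap. In KURAMOCHI it measured 0.28 and 0.31 with simvastatin and 0.31 on both L-778123 arrays, so these groups met. The log2 fold change was -0.55 (SE 0.064, adjusted p = 0.00127) in OVSAHO and -0.01 (SE 0.064, adjusted p = 0.911; 95% interval -0.17 to 0.15) in KURAMOCHI.

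HSP90B1 (GRP94), the HSP90 of the ER, was the gene with 2 probes. At the brighter probe OVSAHO gave 6.52 and 6.60 with simvastatin against 7.11 and 7.18 with L-778123, and KURAMOCHI gave 6.96 and 6.98 against 7.12 on both arrays. Simvastatin arrays lay below L-778123 arrays in both lines, with the wider gap in OVSAHO. There the log2 fold change was -0.58 (SE 0.058, adjusted p = 0.000737), or -33.2%, and in KURAMOCHI it was -0.16 (SE 0.058, adjusted p = 0.0941). The second probe gave -0.75 (SE 0.052, adjusted p = 0.000207) in OVSAHO and passed in KURAMOCHI as well, with -0.22 (SE 0.052, adjusted p = 0.0243). The probes therefore had the same direction in KURAMOCHI but lay on opposite sides of the threshold, as did the brighter probe with normexp background correction (-0.19, adjusted p = 0.0295).

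PDIA4 (ERp72), a disulfide isomerase that forms and shuffles disulfide bonds, fell in OVSAHO, from 3.96 and 4.15 with L-778123 to 3.42 and 3.46 with simvastatin. The KURAMOCHI values were 4.29 and 4.28 with simvastatin and 4.41 and 4.35 with L-778123, a gap of the same order as that between the L-778123 arrays. The log2 fold change was -0.62 (SE 0.079, adjusted p = 0.0018), or -34.9%, in OVSAHO and -0.10 (SE 0.079, adjusted p = 0.404; 95% interval -0.29 to 0.10) in KURAMOCHI.

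CALR (calreticulin), the calcium-binding lectin chaperone of glycoproteins, measured 8.08 and 8.18 with simvastatin and 8.27 and 8.31 with L-778123 in OVSAHO, and 7.47 and 7.51 against 7.61 and 7.55 in KURAMOCHI. Simvastatin arrays were the lower in both lines, by little. The log2 fold changes of -0.16 (SE 0.062, adjusted p = 0.0749) in OVSAHO and -0.09 (SE 0.062, adjusted p = 0.311) in KURAMOCHI did not pass. The OVSAHO call depended on the scaling: with quantile normalization the change was -0.31 (adjusted p = 0.00357), in the table of processed values the authors deposited, which gave nearly the same contrasts as quantile normalization and is no separate support, -0.31 (adjusted p = 0.00356), and with normexp background correction -0.26 (adjusted p = 0.0058).

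HERPUD1 (HERP), a membrane protein of the ER-associated degradation complex, rose by nearly the same amount in both lines. OVSAHO measured 5.78 and 5.77 with simvastatin against 5.16 and 5.21 with L-778123, and KURAMOCHI measured 6.09 and 6.13 against 5.59 and 5.56. Each pair of groups was separated by far more than its duplicates. The log2 fold changes were 0.59 (SE 0.054, adjusted p = 0.000537), an increase of 50.3%, in OVSAHO and 0.53 (SE 0.054, adjusted p = 0.00168), an increase of 44.2%, in KURAMOCHI.

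EDEM1, which passes misfolded glycoproteins on to degradation, had the widest duplicates. In OVSAHO the simvastatin arrays read -2.41 and -2.83 and the L-778123 arrays -2.38 and -2.48, so the groups overlapped. In KURAMOCHI they read -2.15 and -2.08 against -2.05 and -2.19, again with overlap. The log2 fold change was -0.20 (SE 0.145, adjusted p = 0.311; 95% interval -0.56 to 0.16) in OVSAHO and 0.01 (SE 0.145, adjusted p = 0.971; 95% interval -0.35 to 0.37) in KURAMOCHI. The OVSAHO value rested on its simvastatin duplicates: it was -0.41 (adjusted p = 0.0357) without the first and 0.01 (adjusted p = 0.922) without the second.

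XBP1, the transcription factor of the IRE1 arm, was read by a probe printed 10 times on each array. OVSAHO measured 6.16 and 6.26 with simvastatin against 5.83 and 5.80 with L-778123, and KURAMOCHI measured 5.80 and 5.88 against 5.56 and 5.47. No groups of a line overlapped. The log2 fold change was 0.39 (SE 0.067, adjusted p = 0.00552) in OVSAHO and 0.33 (SE 0.067, adjusted p = 0.0167) in KURAMOCHI. In KURAMOCHI the call ended without the second simvastatin array (0.29, adjusted p = 0.082), without the second L-778123 array (0.29, adjusted p = 0.0816), with no filter on dim probes (adjusted p = 0.0688) and under Tukey's test (adjusted p = 0.0778). The files hold no probe sequence, so the IRE1-spliced and unspliced transcripts cannot be told apart here.

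**Figure D3:**
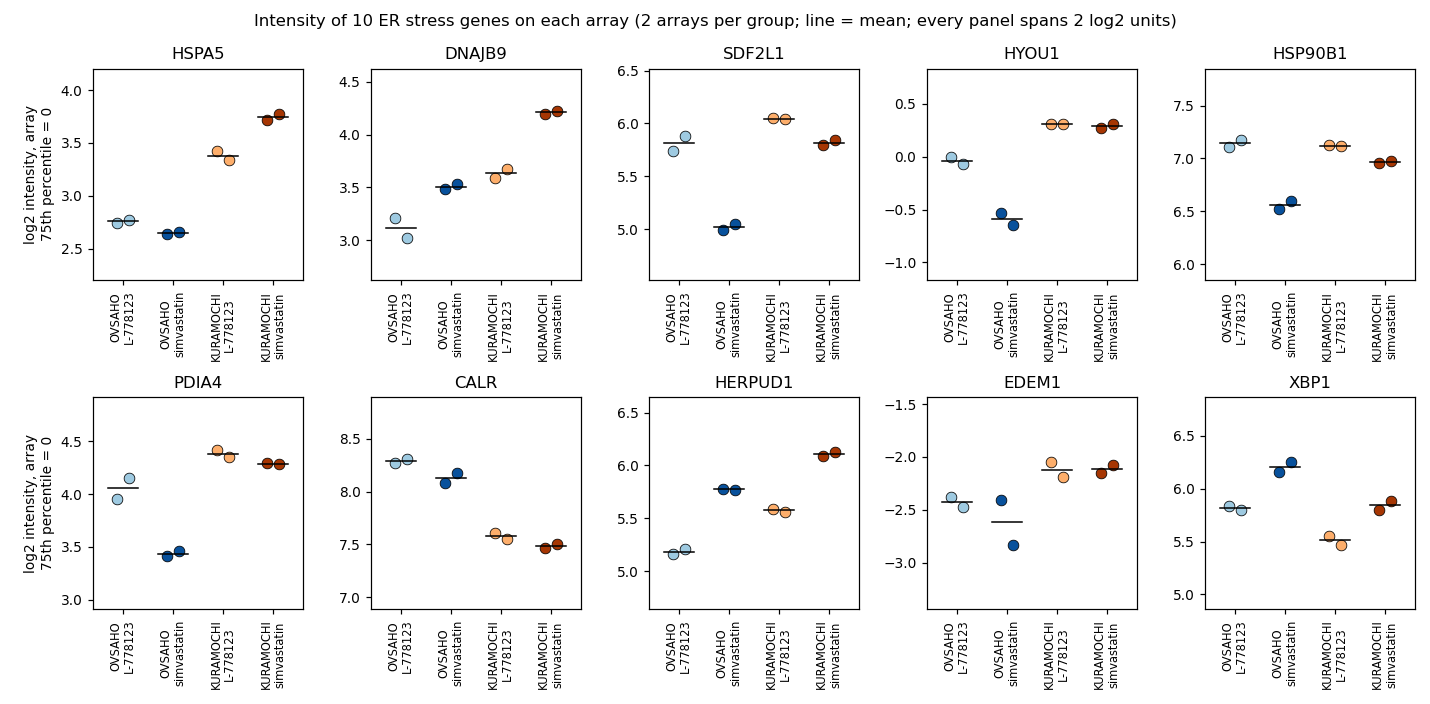
Log2 intensity of the 10 genes on each of the 8 arrays, 1 panel per gene; points are arrays, horizontal lines are means of 2 arrays, and the 75th percentile of each array is 0. HERPUD1, DNAJB9 and XBP1 step up from L-778123 to simvastatin in both lines, and SDF2L1, HYOU1, HSP90B1 and PDIA4 step down in OVSAHO.

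Whether the drug contrast itself differed between the lines was tested as an interaction. It passed for 5 of the 10 genes, HYOU1, SDF2L1, HSPA5, HSP90B1 and PDIA4, all with a lower value in OVSAHO, and for 0 in the other direction with limma, adjusted or not, where over all genes 14.0% were lower and 13.5% higher. The OVSAHO contrast minus the KURAMOCHI contrast was -0.54 (SE 0.090, adjusted p = 0.0118) for HYOU1 and -0.56 (SE 0.095, adjusted p = 0.012) for SDF2L1. For HSPA5 it was -0.47 (SE 0.083, adjusted p = 0.0139). HSP90B1 gave -0.43 (SE 0.082, adjusted p = 0.0181), and -0.53 (SE 0.073, adjusted p = 0.00667) at its second probe. PDIA4 gave -0.52 (SE 0.112, adjusted p = 0.0247). These 5 are BiP, its partners SDF2L1 and HYOU1, GRP94 and a disulfide isomerase. Not every folding gene passed, since the BiP partner DNAJB9 (-0.19, adjusted p = 0.289) and the chaperone CALR did not. The genes that rose in both lines gave intervals around 0: -0.13 to 0.25 for HERPUD1, -0.18 to 0.30 for XBP1 and -0.46 to 0.09 for DNAJB9. CALR (-0.07, adjusted p = 0.595) and EDEM1 (-0.20, adjusted p = 0.521) did not pass either. The calls were near the threshold: without a filter on dim probes none of the 5 passed, with adjusted p from 0.0531 for SDF2L1 to 0.0868 for PDIA4. PDIA4 missed the threshold without any single array of KURAMOCHI or of OVSAHO with simvastatin (-0.49 to -0.55, adjusted p = 0.0591 to 0.0758). HSP90B1 missed it without any 1 KURAMOCHI array or the first OVSAHO simvastatin array (-0.39 to -0.44, adjusted p = 0.0559 to 0.0601), and HSPA5 without the second KURAMOCHI simvastatin array (-0.44, adjusted p = 0.0501).

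Averaged over both drugs, all 10 genes differed between the lines, 2 higher in OVSAHO (CALR and XBP1) and 8 lower, against 42.4% of all genes higher and 40.5% lower. HSPA5 was the furthest apart, at -0.86 (SE 0.042, adjusted p = 7.12e-06) for OVSAHO minus KURAMOCHI, followed by CALR at 0.68 (SE 0.044, adjusted p = 2.48e-05). HYOU1 at -0.61, DNAJB9 at -0.61 and PDIA4 at -0.59 came next and lay within 1 SE of each other, then SDF2L1 at -0.52, EDEM1 at -0.41, HERPUD1 at -0.36, XBP1 at 0.34 and HSP90B1 at -0.19 (SE 0.041, adjusted p = 0.00613). The average hides the drug for the genes that passed the interaction. The HSPA5 gap was -0.62 with L-778123 and -1.09 with simvastatin. The SDF2L1 gap was -0.23 and -0.80. HSP90B1 stood level with L-778123, at 0.02, and was lower in OVSAHO with simvastatin, at -0.40, whereas HERPUD1 kept its gap (-0.39 and -0.33).

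**Figure D4:**
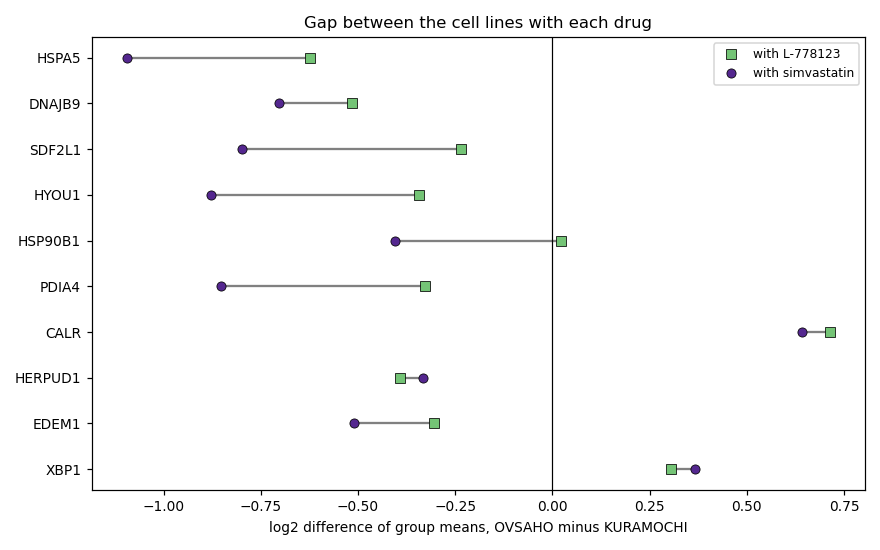
Difference of group means between the lines, OVSAHO minus KURAMOCHI, for each gene with L-778123 (green squares) and with simvastatin (purple circles), in log2 units. The circles of HSPA5, SDF2L1, HYOU1, HSP90B1 and PDIA4 lie well to the left of their squares, and those of HERPUD1, XBP1 and CALR lie close to theirs.

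The motif matches did not divide the genes by direction. In OVSAHO, genes with ERSE or ERSE-II included both HERPUD1 and XBP1, which rose, and SDF2L1, HSP90B1 and HYOU1, which fell. Among the genes without either string, DNAJB9 rose and PDIA4 fell. ERSE or ERSE-II was also present in 4 of the 34 further ER chaperones with a promoter sequence: CANX, CRELD2, ERO1B and PDIA6. Of these, PDIA6, a disulfide isomerase, fell in OVSAHO (-0.67, adjusted p = 0.000665), as did CRELD2 (-0.24, adjusted p = 0.0148). ERO1B, an oxidase that recharges such isomerases, rose there (0.38, adjusted p = 0.0348), and CANX, the membrane-bound relative of calreticulin, did not pass (0.12, adjusted p = 0.255).

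Upstream of these genes, of the 3 sensors EIF2AK3 passed the test. EIF2AK3, which encodes PERK, measured 0.47 and 0.52 with simvastatin against -0.51 and -0.65 with L-778123 in OVSAHO, and -0.09 and -0.20 against -0.84 and -0.64 in KURAMOCHI. It rose by 1.08 (SE 0.092, adjusted p = 0.000437) and 0.60 (SE 0.092, adjusted p = 0.00656). ATF6 gave -0.09 (adjusted p = 0.382) and 0.13 (adjusted p = 0.269), and ERN1, which encodes IRE1 and was well above background on only 5 arrays, gave -0.70 (SE 0.609, adjusted p = 0.382) and 0.43 (SE 0.609, adjusted p = 0.631). Of 15 sensors and membrane-bound transducers, 3 rose and 4 fell in OVSAHO, and 2 rose and 1 fell in KURAMOCHI. The falls were led by CREB3L2, a transcription factor of the ATF6 kind, with -1.23 and -0.64 (adjusted p = 0.000163 and 0.00322), and included CREB3 in OVSAHO (-0.32, adjusted p = 0.0288). CREB3L4, another membrane-bound transducer, rose in both lines (0.47 and 0.42, adjusted p = 0.00131 and 0.00374). For these and the following lists the shares over all genes, given above for the 10, were 26.4% rising and 27.5% falling in OVSAHO and 17.0% and 18.4% in KURAMOCHI.

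Genes of the PERK and ATF4 arm were higher with simvastatin in both lines, with 13 of 20 rising in each, 2 and 0 falling, and list medians of 0.75 for OVSAHO and 0.51 for KURAMOCHI. ATF4 rose by 0.92 (SE 0.076, adjusted p = 0.000382) in OVSAHO and by 0.29 (SE 0.076, adjusted p = 0.0343) in KURAMOCHI. DDIT3 measured 3.54 and 3.56 with simvastatin against 1.79 and 1.71 with L-778123 in OVSAHO, and 2.46 and 2.58 against 1.70 and 1.72 in KURAMOCHI. Its rise was 1.80 (adjusted p = 3.36e-05) and 0.81 (adjusted p = 0.000815). The largest rises were those of ATF3, 2.78 and 0.94, and NUPR1, 2.74 and 1.65, both stress-induced transcription regulators. The genes that fell in OVSAHO were PSAT1 (-0.98) and PHGDH (-0.91), which make serine, and PHGDH rose in KURAMOCHI (0.35, adjusted p = 0.00586).

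Of 35 further ER chaperones and folding enzymes, 18 fell and 5 rose in OVSAHO (median -0.24), and 1 fell and 6 rose in KURAMOCHI (median -0.001). FKBP14, a prolyl isomerase that acts on collagen, fell by 1.19 (adjusted p = 0.000181) in OVSAHO and gave -0.07 (adjusted p = 0.535) in KURAMOCHI. The disulfide isomerases PDIA2 (1.58, adjusted p = 0.000274) and PDIA5 (0.91, adjusted p = 0.000125) rose in OVSAHO. In KURAMOCHI, ERO1B (0.84, adjusted p = 0.00372) and PDIA2 (0.55, adjusted p = 0.0195) rose most, and PDIA5 rose as well (0.49, adjusted p = 0.00216). PPIC (-0.34, adjusted p = 0.0203) was the gene that fell there, and it also fell in OVSAHO (-0.55, adjusted p = 0.00223). Of 32 genes of translocation into the ER, 21 fell and 1 rose in OVSAHO (median -0.35), and 4 fell and 1 rose in KURAMOCHI (median -0.05). RPN2, a subunit of the oligosaccharyltransferase, changed by -0.74 in OVSAHO and also fell in KURAMOCHI (-0.29, adjusted p = 0.0196). SEC61G, of the translocon, changed by -0.87 in OVSAHO and gave -0.22 (adjusted p = 0.258) in KURAMOCHI. SEC11C, a signal peptidase subunit, rose in both lines (0.47 and 0.59). SPCS3, another signal peptidase subunit, fell in OVSAHO (-0.59, adjusted p = 0.00152) and in KURAMOCHI (-0.40, adjusted p = 0.011). TRAM2 fell in KURAMOCHI (-0.37, adjusted p = 0.0329) and gave 0.01 (adjusted p = 0.944) in OVSAHO. The interaction passed with a lower value in OVSAHO for 11 of 35 and 10 of 32 of these genes (14.0% of all genes), and with a higher value for 2 and 0 (13.5% of all genes).

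Of 30 further degradation genes, the group of HERPUD1 and EDEM1, 9 rose and 7 fell in OVSAHO (median 0.04), near the 26.4% and 27.5% of all genes, and 6 rose and 2 fell in KURAMOCHI (median 0.04). HERPUD2, the paralog of HERPUD1, rose in OVSAHO (0.71, adjusted p = 0.00158) and gave 0.12 (adjusted p = 0.349) in KURAMOCHI. SEL1L, the scaffold of the HRD1 ligase complex, rose in OVSAHO (0.43, adjusted p = 0.00268) and in KURAMOCHI (0.46, adjusted p = 0.00407). DERL3 also rose in both (0.38, adjusted p = 0.0245, and 0.51, adjusted p = 0.0141). VCP, the ATPase that pulls clients out of the membrane, fell in both lines (-0.27, adjusted p = 0.0192, and -0.40, adjusted p = 0.00761). Its cofactor UFD1 fell as well (-0.24, adjusted p = 0.0161, and -0.36, adjusted p = 0.00661). The ubiquitin ligase RNF145 rose in OVSAHO (0.59) and in KURAMOCHI (0.37, adjusted p = 0.0119). UBE2G2 (-0.43) and ERLEC1 (-0.36) fell in OVSAHO and did not pass in KURAMOCHI (-0.18, adjusted p = 0.0775, and 0.16, adjusted p = 0.122).

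**Figure D5:**
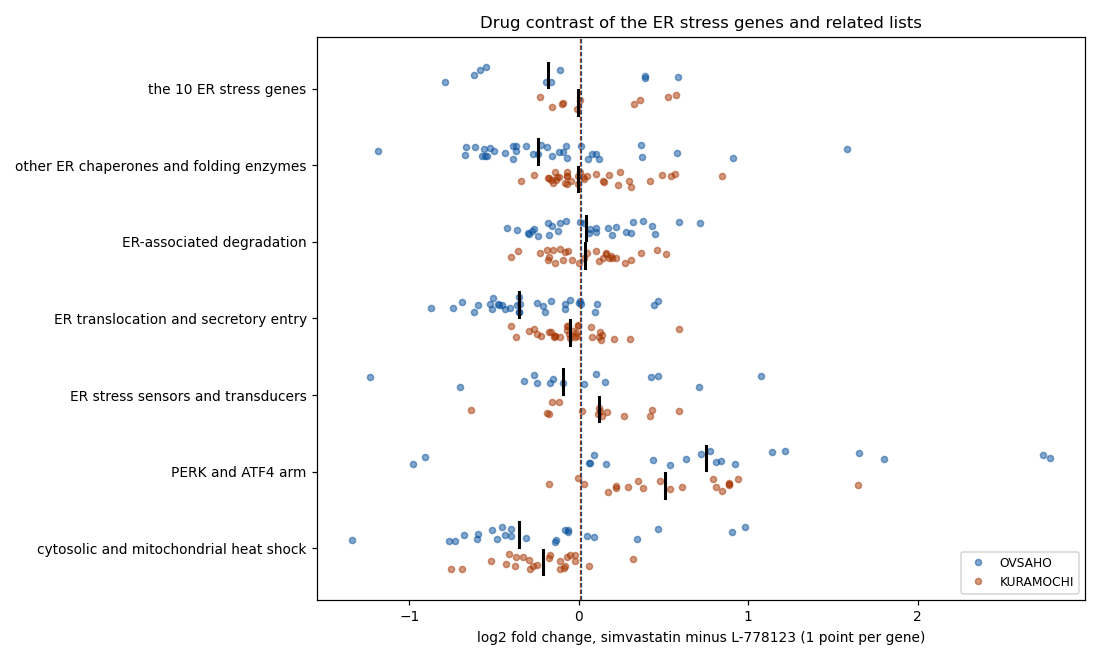
Log2 fold change, simvastatin minus L-778123, for the 10 genes and the related lists; each point is 1 gene at its brightest probe, blue for OVSAHO and brown for KURAMOCHI, black bars are list medians and dashed lines the medians of all genes. The PERK and ATF4 arm lies to the right in both lines, and the folding and translocation lists lie to the left in OVSAHO (medians -0.24 and -0.35). The heat shock list, outside the ER, lies to the left in both lines (medians -0.36 in OVSAHO and -0.21 in KURAMOCHI).

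The genes whose profile over the 8 arrays was most like that of HSPA5, among 14467 compared, were TMEM61, ZNF580, B4GAT1, AKR1A1 and ITPR1, with Pearson r between 0.9958 and 0.9978. The arrays are 4 groups of 2 and share the gap between the lines, so r serves as a description. ITPR1, a calcium release channel of the ER, rose with simvastatin in KURAMOCHI by 1.59 (adjusted p = 0.000119) and gave -0.14 (adjusted p = 0.0851) in OVSAHO, the same order of groups as HSPA5. B4GAT1, a glycosyltransferase, went the same way, with 0.46 (adjusted p = 0.00318) and -0.28 (adjusted p = 0.00978).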

How the data were processed

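Total RNA was hybridized to 1-color Agilent arrays scanned with Feature Extraction 11.5.1.1, and the deposited intensity is that software's processed signal, background-subtracted per the file headers. A table of normalized intensities processed by the authors was deposited as well. After log2 was taken, its columns correlated with the scanner log2 intensities at 0.9991 or more, so it served as an alternative. Here, control and outlier spots were left out (58 to 99 outliers per array), spots of a probe averaged, and log2 values scaled to each array's 75th percentile. In R 4.3.3, limma 3.58.1 fitted 1 mean per group to 33753 of 58162 probes, those that at least 1 group showed well above background on both its arrays, and the fit was tested on simulated data, for which the first pass mark on recovery was missed and replaced by marks on bias and false calls. p-values were adjusted by Benjamini-Hochberg over those probes, with a threshold of 0.05 and, beside it, 2-fold. A gene was read at its brightest probe, with names from RefSeq for 24782 of 50096 identifiers. Where normexp was used it took median signals, with an offset of 50. Tukey's test after a two-way variance analysis, as in the methods, was an alternative. The number of arrays limits the precision. All 8 arrays shared 1 slide, so that group cannot be told apart from position on it. The named genes were the 10, ERN1, EIF2AK3, ATF6, ATF4 and DDIT3, the 2 largest passing changes per list, line and direction, HMGCS1 and the 5 profiles nearest HSPA5. CANX, CRELD2, VWF and TEK were named after their values were seen, and scaling to the percentile over spots was an alternative added after seeing the data. An item under that rule is not reported here. The 10 genes and the lists were chosen with earlier results of these data known.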

Additional observations from a re-analysis of the deposited data

Results flagged for a closer look

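The drug contrast differed between the lines (adjusted p under 0.05 for OVSAHO minus KURAMOCHI) for 31 named genes. Lower values in OVSAHO were measured for the members HSPA5 (-0.47), HSP90B1 (-0.43), PDIA4 (-0.52), SDF2L1 (-0.56) and HYOU1 (-0.54). Among the other ER genes the same sign was measured for FKBP14 (-1.11), PDIA6 (-0.50), ERLEC1 (-0.53), RPN2 (-0.45), CREB3L2 (-0.59) and CREB3 (-0.46). The opposite sign was measured for PDIA2 (1.03), PDIA5 (0.42), HERPUD2 (0.59) and EIF2AK3 (0.48). In the ATF4 arm the difference was 1.84 for ATF3, 1.09 for NUPR1, 1.00 for DDIT3 and 0.63 for ATF4, against -1.01 for PSAT1 and -1.26 for PHGDH. The heat shock genes HSPB1 (1.03) and HSPA4L (-0.59) also differed, as did the sterol synthesis gene HMGCS1 (-1.17). The profiles like that of HSPA5 gave -0.51 for TMEM61, -0.34 for ZNF580, -0.73 for B4GAT1, -0.37 for AKR1A1 and -1.72 for ITPR1. The endothelial markers gave -3.15 for VWF and 3.62 for TEK, the latter not well above background on the OVSAHO L-778123 arrays. The adjusted p was nearest the threshold for CREB3 (0.0497) and EIF2AK3 (0.0495).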

How the results depend on the processing

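Over 20 alternatives, 9 member values changed sign, none of them passing. With an array left out, EDEM1 ranged from -0.405 to 0.0147 in OVSAHO, from -0.0657 (and -0.0283) to 0.0823 in KURAMOCHI and from -0.413 to 0.0064 for the difference, and HYOU1 in KURAMOCHI from -0.0284 to 0.0066. With quantile normalization and in the authors' table the difference was -0.106 and -0.112 for HERPUD1 and -0.0711 and -0.0775 for XBP1. The cause was not tested. The 0 falls in KURAMOCHI became 1 with probes bright on all arrays and with the median over probes, 2 with normexp, and 0 to 1 with an array left out. The 5 lower differences became 0 with no filter on dim probes. There more probes are tested and the SEs were larger (0.108 against 0.0834 for HSPA5), and which of these mattered was not tested. The count was also lower with some arrays left out. The 3 rises and 4 falls in OVSAHO moved by at most 1 gene. Of 1092 counts over the lists, 125 moved by over 1.5 times. Calls over all probes in OVSAHO (7756 higher, 8466 lower) became 4245 and 5133 with Tukey's test, and 11700 were higher with normexp. In KURAMOCHI (4741 and 5847) they became 1870 and 2573 with Tukey's test and 2687 and 3646 with no filter. For the difference (3791 and 3940) they became 2082 and 1848 with no filter. With an array left out, the fewest were 2659 and 3672 in KURAMOCHI and 2386 lower for the difference.

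Replicate numbers gave no sign of pairing, with correlations of replicate deviations between groups of 0.001 to 0.056. Such values cannot show that the cultures were unpaired. With the number as a replicate block, 3 members rose and 4 fell in OVSAHO, 4 rose and 0 fell in KURAMOCHI and 5 differences were lower, and no member's call changed. Probes called fell from 16222 to 15487 in OVSAHO, from 10588 to 9472 in KURAMOCHI and from 7731 to 6433 for the difference.

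A pair of arrays per group limits what was detectable; the SE of the drug contrast was 0.145 for EDEM1 and 0.609 for ERN1, against 0.0535 for HERPUD1.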

Other observations

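Of 24 heat shock genes outside the ER, 12 fell and 3 rose in OVSAHO (median -0.36; 27.5% and 26.4% of all genes), and 9 fell and 1 rose in KURAMOCHI (median -0.21; 18.4% and 17.0%). HSPA4L, an HSP110 relative, fell in both lines, with -1.34 (adjusted p = 0.000227) and -0.75 (adjusted p = 0.00339). HSPA8, the constitutive cytosolic HSP70, fell in OVSAHO (-0.68, adjusted p = 0.000357) and in KURAMOCHI (-0.69, adjusted p = 0.000792). CHORDC1, an HSP90 cochaperone, fell in OVSAHO (-0.76, adjusted p = 0.00237) and gave -0.29 (adjusted p = 0.0871) in KURAMOCHI. HSF1, the transcription factor of the heat shock response, rose in both (0.47, adjusted p = 0.00192, and 0.32, adjusted p = 0.013). HSPB1 (HSP27) rose in OVSAHO by 0.98 (adjusted p = 0.00034) and gave -0.05 (adjusted p = 0.648) in KURAMOCHI.

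The AARE core, found in 3.62% of all promoters, was present at 6 of 18 genes of the PERK and ATF4 list with a promoter sequence. It was present at 0 of 34 further ER chaperones, 0 of 24 degradation genes, 1 of 27 translocation genes, 1 of 15 sensors and 2 of 21 heat shock genes. ERSE or ERSE-II, found in 0.131% of all promoters, was present at 0 promoters of the degradation, translocation, sensor, ATF4 and heat shock lists. With so low a share, lists of this size would mostly hold none.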
